A study of Mus musculus with 2 samples.

Results

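The type 2 cytokine locus of the mouse was examined as the stretch of chromosome 11 that holds Kif3a, Il4, Il13, Rad50, Il5, Irf1, Csf2 and Il3, with 100000 bp added on either side (chr11:53467379-54367277, mm10). Of 64732 CTCF sites on chromosomes 1 to 19 and X, 64 had their summit in this window of 899.9 kb. The window was set by gene positions (GENCODE M21) and not by any measured binding. CTCF was profiled by ChIP-seq in whole lung of newborn mice of the B6NCrl strain, at postnatal age 0 days and with no sex recorded, in 1 group of 2 replicates. Because the labels tie both replicates to 1 biosample of 1 donor, their spread may be technical only, and there was no other group to compare with. Sites are the authors' optimal list, thresholded by the irreproducible discovery rate (IDR), a measure of how alike peaks rank in replicates. Signal is the peak signal as deposited, in the unit of the peak caller. The peak lists carry no read counts, so depth is unknown.

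In this locus Il4, Il13 and Il5 encode the cytokines that define type 2 immunity. The 3′ part of Rad50 carries a control region that regulates Il4 and Il13 in T helper cells, and in the lung these cytokines drive eosinophil recruitment, mucus production and allergic inflammation. CTCF, a DNA-binding protein with many zinc fingers, recognises a long asymmetric motif and halts cohesin, and loops of chromatin form mostly between sites whose motifs point towards each other. Lung tissue is a mixture of epithelial, stromal, endothelial and blood cells, and a weak site cannot be told apart from a site bound in few cells. Binding peaks carry no expression, so the tissue label was not checked with marker genes.

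Sites were numbered 1 to 64 along the plus strand, and the sequences that carry the results are shown first. Each is 40 bases of the GRCm38 reference (mm10), read 5′ to 3′ on the strand of the motif. Capitals mark the 12 bases of the CTCF core motif, found on either strand within 50 bp of the summit with at most 1 mismatch. At sites 22 and 58 no such core was present, and capitals mark the 12 bases that line up with the core in the best match of a matrix learned from strong sites on other chromosomes. The list gives the highest sites inside Kif3a (13 and 14) and the 3 sites with a core between Il4 and Il13 and in Il13. It adds the first 3 of the 8 sites behind Il5, the strongest between Irf1 and Csf2, and the strong pair between Csf2 and Il3.
Site 13, intron of Kif3a, chr11:53584998-53585037, plus strand: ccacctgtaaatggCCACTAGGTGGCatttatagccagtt
Site 14, intron of Kif3a, chr11:53590424-53590463, plus strand: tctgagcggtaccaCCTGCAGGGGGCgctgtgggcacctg
Site 16, between Il4 and Il13, chr11:53624305-53624344, minus strand: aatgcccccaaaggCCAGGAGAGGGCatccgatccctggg
Site 17, between Il4 and Il13, chr11:53628066-53628105, minus strand: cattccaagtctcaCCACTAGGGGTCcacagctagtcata
Site 18, coding exon of Il13, chr11:53632511-53632550, plus strand: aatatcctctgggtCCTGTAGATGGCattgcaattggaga
Site 21, between Il5 and Irf1, chr11:53735745-53735784, plus strand: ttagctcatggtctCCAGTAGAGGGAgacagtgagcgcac
Site 22, between Il5 and Irf1, chr11:53737141-53737180, minus strand: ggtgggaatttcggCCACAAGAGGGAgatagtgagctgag
Site 23, between Il5 and Irf1, chr11:53737781-53737820, plus strand: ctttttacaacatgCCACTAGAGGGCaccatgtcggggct
Site 52, between Irf1 and Csf2, chr11:54145068-54145107, plus strand: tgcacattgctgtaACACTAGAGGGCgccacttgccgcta
Site 56, between Csf2 and Il3, chr11:54257167-54257206, minus strand: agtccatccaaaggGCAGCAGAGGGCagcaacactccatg
Site 58, between Csf2 and Il3, chr11:54264745-54264784, plus strand: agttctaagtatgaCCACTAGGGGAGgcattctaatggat

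The locus was dense in CTCF sites, with 71.1 per Mb against 40.0 per Mb on chromosome 11 and 24.6 per Mb over all chromosomes used. Of 2630 windows of the same length that held any site, the median held 20 sites, the quartiles were 8 and 35, and 155 windows (5.89%) held as many as this one or more. The share of strong sites was close to that of the whole list: 15 of 64 (23.4%) were among the strongest 25% of all sites, which start at a signal of 208. The median signal was 94.6 in the locus and 76.2 over all sites. Most sites lay outside exons. Sites within 1000 bp of the start of a protein-coding transcript were classed apart, in an exon or not, and there were 10. Of the other sites, 27 lay between genes, 21 in introns, 3 in coding exons, 2 in untranslated exon sequence and 1 in another exon.

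**Figure D1:**
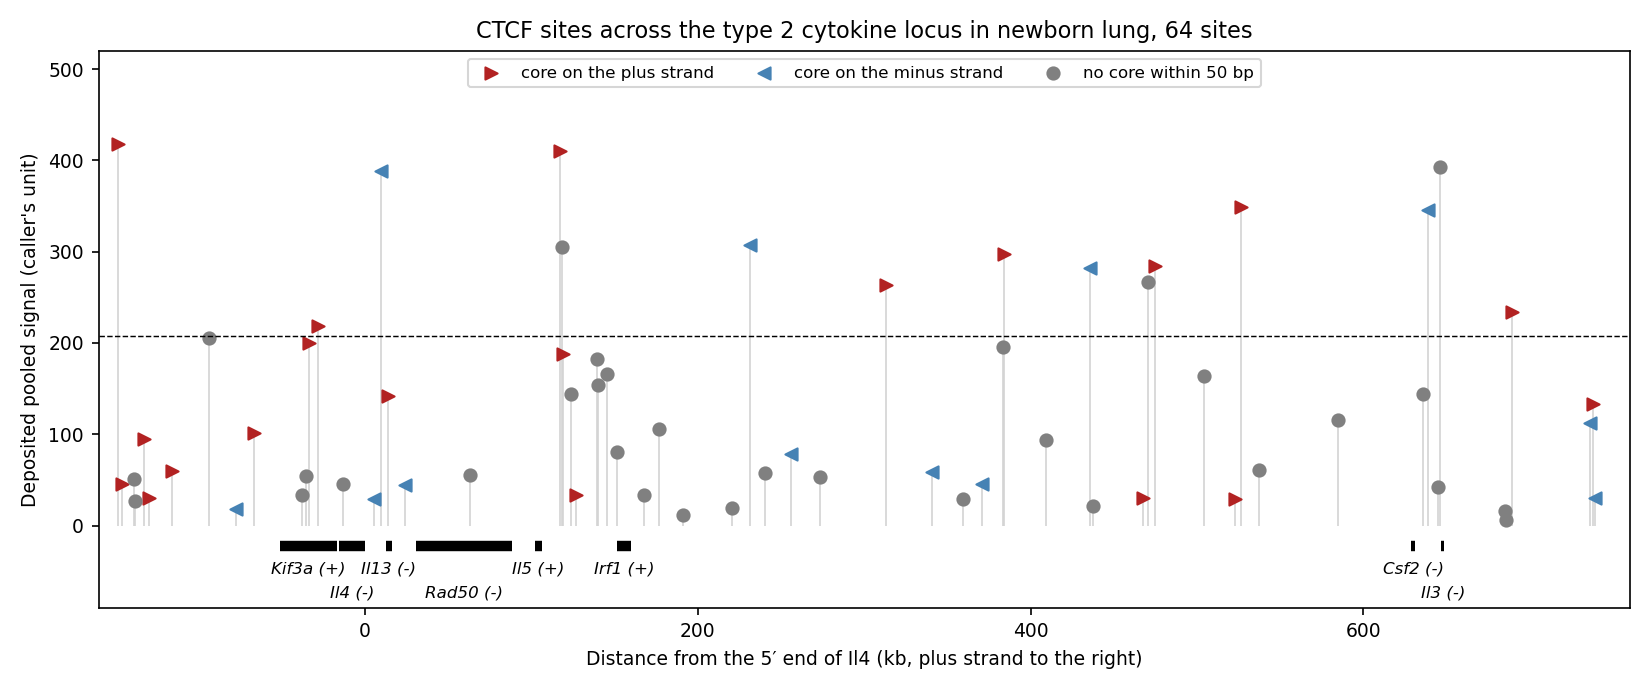
Pooled CTCF signal (vertical axis, caller's unit) of the 64 sites against distance from the 5′ end of Il4 in kb, with symbols for the strand of the core and black bars for the 8 genes. The dashed line is the lower limit of the strongest 25% of all sites (208), and 15 sites lie above it, with none over Il4, Il13, Rad50, Il5, Irf1, Csf2 or Il3 themselves.

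Both replicates gave nearly the same picture at strong sites and a looser one at weak sites. Of the 64 sites, 62 had a peak within 100 bp in each replicate, and 36 of these were higher in replicate 1. Among the 15 sites of the strongest 25% the log2 ratio of replicate 1 to replicate 2 ran from -0.29 to 0.23, with an SD of 0.14 (0.13 over all sites of that class). In the weakest 25% the SD was 0.71 (0.72 over all), and the widest ratio, -1.40, was at site 64 in Acsl6. Site 32 had no peak in replicate 2 and site 60 had none in replicate 1, and both ranked within the weakest 1% of all sites, at a signal of 11.9 and 6.7.

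**Figure D2:**
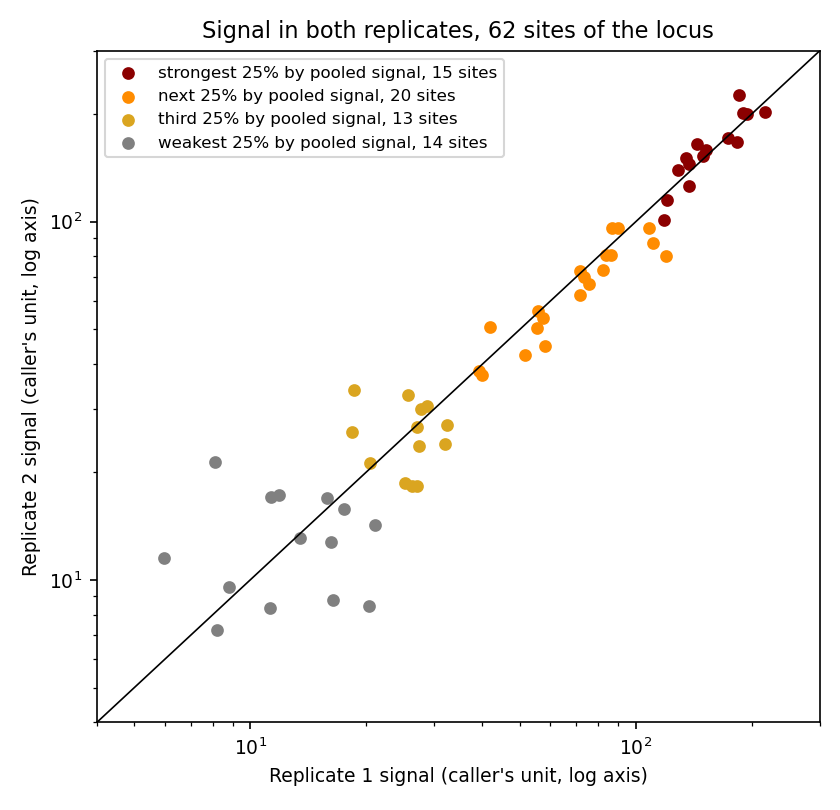
Signal in replicate 2 against replicate 1 on log axes for the 62 sites with a peak in both, coloured by class of pooled signal (each 25% of all sites), with the line of equal values. The 15 sites of the strongest class stay close to the line and the weakest sites scatter around it.

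None of the 5 cytokine genes had a CTCF site at its promoter, which was counted when a summit lay within 1000 bp of the start of a protein-coding transcript. Of all 21646 protein-coding genes, 39.8% had one. With 5 genes the 95% Wilson interval of the cytokine share reaches up to 43.4%, so the count does not set them apart from that background. Among the 8 genes of the locus only Irf1 had a promoter site (12.5%, 95% Wilson interval 2.24 to 47.1, which also includes the background). The nearest site to a coding start was at 92 bp for Irf1, 2188 bp for Il13, 2519 bp for Il3, 3505 bp for Kif3a, 4670 bp for Csf2, 5660 bp for Il4, 14975 bp for Il5 and 25430 bp for Rad50, against a median of 2966 bp over all protein-coding genes. Il13, Il3 and Irf1 were thus below that median and the other genes above it.

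Il4 encodes the cytokine that commits T helper cells to the type 2 fate, and its nearest sites were weak. Upstream of it, 5660 bp from its 5′ end, site 16 had a signal of 28.7, with 11.3 in replicate 1 and 17.1 in replicate 2. On the other side, site 15 (chr11:53605054-53605333) had a signal of 45.5, with 26.2 in replicate 1 and 18.3 in replicate 2, and no core. Both were in repeat-masked sequence (82.6% and 73.1% of the bases around the summit), and which replicate was higher differed between them. Site 15 lay in an intron of a non-coding transcript of the gene, beyond its coding transcripts and 13475 bp downstream of its 5′ end.

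Il13 encodes the cytokine of mucus production and airway hyperreactivity, and the strongest site near it or Il4 lay in the gap between these genes. Site 17, 9409 bp from the 5′ end of Il4 and 3246 bp from the 3′ end of Il13, had a signal of 388, and 4.64% of all sites were at or above its rank. It measured 189.5 in replicate 1 and 200.8 in replicate 2, more than 10 times either value at site 16. Site 18 lay in a coding exon of Il13 itself, 2188 bp downstream of its start, with a signal of 142, made of 73.3 in replicate 1 and 70.2 in replicate 2. The cores of sites 17 and 18 read on opposite strands and pointed away from each other. Upstream of Il13, site 19 was weak, at 44.8, with 18.4 in replicate 1 and 25.9 in replicate 2.

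Rad50 encodes a subunit of the complex that repairs double-strand breaks, and 1 site was listed between site 19 and site 21, on either side of it. That was site 20, in its body of 57.8 kb, at 54.9, with 27.1 in replicate 1 and 26.8 in replicate 2 and no core. The next site downstream of the gene, site 19, was 38931 bp from site 20, so the 3′ part of Rad50 held no listed site. On the other side, 53.9 kb separated site 20 from site 21, the longest gap between neighbouring sites in the window. The Il5 gene, which encodes the growth factor of eosinophils, fell within that gap, and neither its body nor the 13.5 kb between it and Rad50 held a site.

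The gap ended in a dense cluster 3′ of Il5. Between Il5 and Irf1 8 sites lay in 44.9 kb, at 17.8 per 100 kb, and their median signal was 174. Site 21, 14975 bp from the 5′ end of Il5, had a signal of 410, with 184.8 in replicate 1 and 226.2 in replicate 2, and ranked in the top 3.15% of all sites. Site 22 followed 1432 bp further on (305, with 152.0 and 158.2 in replicates 1 and 2), and site 23 another 590 bp on (187, with 89.8 and 96.1). All 3 were higher in each replicate than sites 18, 19 and 20 were in either. The other 5 sites ran from 33.9 to 182, and of the 8 sites 3 had a core, all on the plus strand. Site 28 lay 381 bp from the start of the microRNA gene Mir7671, at 166.

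**Figure D3:**
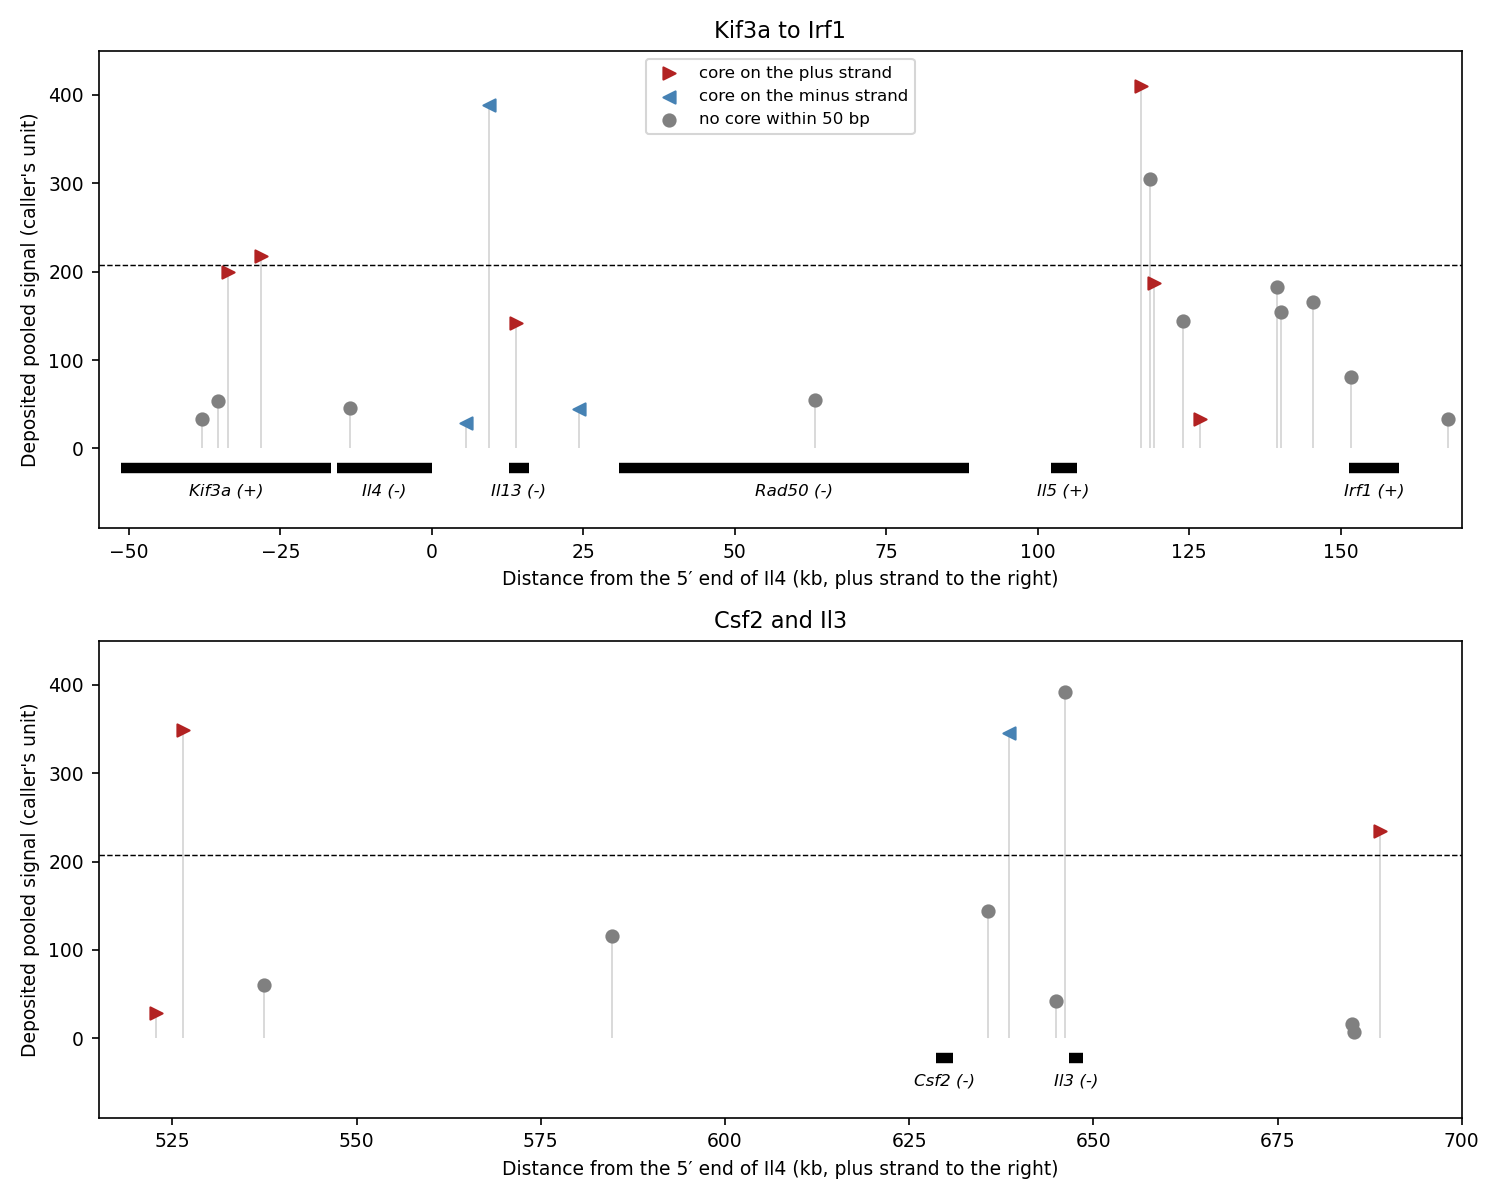
Pooled CTCF signal (caller's unit) against distance from the 5′ end of Il4 in kb, from Kif3a to Irf1 (top) and around Csf2 and Il3 (bottom), with symbols for the strand of the core and gene strand in brackets. Signals of 388 between Il4 and Il13 and 410 behind Il5 stand on either side of a stretch where the other sites are at 142, 44.8 and 54.9.

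Irf1 encodes an interferon-induced transcription factor, and its promoter held site 29 at a signal of 80.7, with 39.2 in replicate 1 and 38.3 in replicate 2. The site covers chr11:53770245-53770524 and had no core, and 78.1% of the bases around its summit were G or C. Annotated transcripts of Irf1 start on both sides of it, so that it lies in the first intron of the longer ones and just upstream of the others. RefSeq promoter windows (300 bases around a start, GRCm38.p6) were given for 7 of the 8 genes, 9 windows in all, and 1 of them held a summit. In that window of Irf1 the dinucleotide CG occurred 43 times. The GC box (GGGCGG on either strand) was present 2 times without overlap, and 35.7% of 32851 RefSeq promoters had at least 1. The interferon-gamma activated sequence, TTCNNNGAA, was not found in these letters, and 8.30% of promoters had it. The window starts at 53770223, past the outermost 5′ end of Irf1 at 53770014, so sequence upstream of that end was not searched. The stretch from the first exons of the longer transcripts to the RefSeq start is shown with both GC boxes in capitals, and the summit is base 107 of it.
Irf1, chr11:53770279-53770472, plus strand: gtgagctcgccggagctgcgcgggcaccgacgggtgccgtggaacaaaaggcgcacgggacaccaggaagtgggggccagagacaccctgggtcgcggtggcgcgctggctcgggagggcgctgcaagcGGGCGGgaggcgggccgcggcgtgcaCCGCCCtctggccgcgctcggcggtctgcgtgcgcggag

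Csf2 encodes GM-CSF, which alveolar macrophages need to mature, and Il3 encodes a growth factor of mast cells and basophils. The 15.6 kb between these genes held 4 sites with a median signal of 245. Site 55, 4670 bp upstream of Csf2 and in an exon of the antisense RNA gene Gm12223, had a signal of 144, with 71.9 in replicate 1 and 72.8 in replicate 2. Site 56 had 345, with 173.5 and 171.5 in replicates 1 and 2, and site 58, 545 bp beyond the 3′ end of Il3, had 392, with 194.0 in replicate 1 and 200.01 in replicate 2. Site 58 was thus the strongest of the window after sites 1 and 21, and at sites 55, 56 and 58 the replicates were close together. On its downstream side Csf2 had no site for 46283 bp from its 5′ end, as far as site 54 in the non-coding gene 4933405E24Rik (116, with 55.8 and 56.4). Upstream of Il3 the nearest was 36537 bp away, site 59 at the promoter of Acsl6 (16.1, with 8.19 and 7.27).

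Kif3a encodes a motor subunit needed for cilia, and its body of 34.6 kb held 4 sites. The highest was site 14 at 218, with 118.7 in replicate 1 and 101.1 in replicate 2. Site 13, with a perfect core, had 199 and a wider spread, 119.5 in replicate 1 against 80.3 in replicate 2. Sites 11 and 12, at 33.1 and 54.2, had no core. The promoter of Kif3a had no site in the optimal list, but a peak 12 bp from a start was in the conservative list, at a signal of 25.8, with 10.6 in replicate 1 and 13.9 in replicate 2.

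Beyond the cytokine genes, the 469 kb between Irf1 and Csf2 held 25 sites, at 5.33 per 100 kb, and 7 of the 15 sites of the strongest 25%. The highest of these was site 52 at 349, with 183.3 in replicate 1 and 166.4 in replicate 2. The highest site of the left flank and of the whole window was site 1, in a coding exon of Gm9837, at 418, with 216.7 in replicate 1 and 202.8 in replicate 2 and a perfect core. In the right flank, site 61 in an intron of Acsl6, a fatty acid activating enzyme, was highest at 234, with 120.4 and 115.0. Of the 21 protein-coding genes in or reaching into the window, 9 had a promoter site, a share near the 39.8% of all protein-coding genes. Gm12216 had the site with the second highest of these signals (307, with 144.4 and 164.5), after Gm9837. The others were the carnitine transporter gene Slc22a5 (52.7), its relative Slc22a4 (94.1), Sowaha and Gm9945 at the same site (51.2), Acsl6, Irf1 and Shroom1 (95.7, at a summit outside the window).

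The CTCF core was present at 32 of the 64 sites (50%, 95% Wilson interval 38.1 to 61.9, counting error only), and over all sites at 48.3%. Windows 1000 bp to either side of the sites held it in 1 of 128 cases (0.781%), against 1.28% over all sites. Of the 15 sites of the strongest 25%, 12 had the core (80%, against 70.2% over all sites of that class). The exceptions were site 22 behind Il5, site 48 at 267 and site 58 beside Il3. At site 58 the best match had 2 mismatches, and 66.2% of all sites had a better match to the matrix, while only 4.34% had an equal or higher signal. At site 17 between Il4 and Il13, 46.1% of sites had a better match. Sites 16 and 19, weak sites beside Il4 and Il13, went the other way. For site 16, 83.1% of sites had a signal at or above it and 18.1% a better match. At site 19 the shares were 66.3% and 19.4%. Weak sites 15 in Il4 and 57 beside Il3 did not, with shares of 65.8% and 59.9%, and of 68.2% and 59.4%. Across the 64 sites signal and matrix score had a Spearman's rho of 0.36, and across all sites 0.45, as a description only, since neighbouring sites share their surroundings and the libraries.

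Cores lay on the plus strand at 20 sites and on the minus strand at 12. Taking neighbours among these 32 sites, 14 of 31 pairs read on the same strand (45.2%, 95% Wilson interval 29.2 to 62.2), 9 pointed towards each other and 8 away. Over all sites 50.8% of such pairs read on the same strand, which lies within that interval. Pairs pointing towards each other made up 29.0% in the window and 24.6% over all sites. Those pointing away made up 25.8% and 24.6%. The left end of the window was mostly plus: the first 5 cores and the 3 cores in and just before Kif3a read that way, with site 9 between them on the minus strand. The best matrix match fell on the same strand as the core at all 32 sites. As the matrix was learned from sites aligned on this core, that is no separate check of orientation.

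The genes differed in the orientation of the nearest sites of the strongest 25% around them, a view chosen after the values were seen. Kif3a lay between site 1 on the plus strand and site 17 on the minus strand, 158.0 kb apart with cores pointing towards each other, and had site 14 inside it. Il4 lay between site 14 in Kif3a on the plus strand and site 17 on the minus strand, 37.6 kb apart with cores pointing towards each other. Il13, Rad50 and Il5 shared the next interval, 107.7 kb from site 17 on the minus strand to site 21 on the plus strand, with cores pointing away from each other. Csf2 again lay between cores pointing towards each other, site 52 on the plus strand and site 56 on the minus strand, 112.1 kb apart. Irf1 and Il3 each had a neighbour with no core on one side (sites 22 and 58), so no orientation could be given for them. When the sites of the next 25% were counted too, Il4 kept the same neighbours, and the left neighbour of Kif3a became site 10, also on the plus strand. Site 18 inside Il13 then became the left neighbour of Rad50 and Il5, with both cores on the plus strand, and Csf2 had neighbours without a core. Loops were not measured, so what these orientations do was not tested.

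Most of the weak sites with a core lay in repeat-masked sequence. At 15 sites (23.4%) 50% or more of the bases within 100 bp of the summit were repeat-masked in the reference, against 15.8% of all sites. None of the 15 was among the strongest 25% of all sites, their median signal was 44.8, and the highest was 133, while the other 49 sites had a median of 144. Over all sites the medians were 46.2 and 89.3, in the same order, but 557 masked sites (5.46%) were among the strongest 25% and the highest reached 514. Of the 12 sites in the weaker 50% of all sites that had a core, 10 were masked in this way (83.3%, against 43.0% over all sites), and of the 20 in the stronger 50% 2 were (10%, against 11.6%). The core CCAGAAGAGGGC occurred at 6 sites, all masked, with signals from 30.3 to 95. Sites 5 and 25, of which the first lies in the left flank and the second in the cluster behind Il5, are 259.6 kb apart and shared 34 of 40 bases.
Site 5, left flank, chr11:53485857-53485896, plus strand: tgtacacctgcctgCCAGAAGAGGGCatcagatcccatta
Site 25, between Il5 and Irf1, chr11:53745462-53745501, plus strand: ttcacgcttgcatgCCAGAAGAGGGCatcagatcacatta

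**Figure D4:**
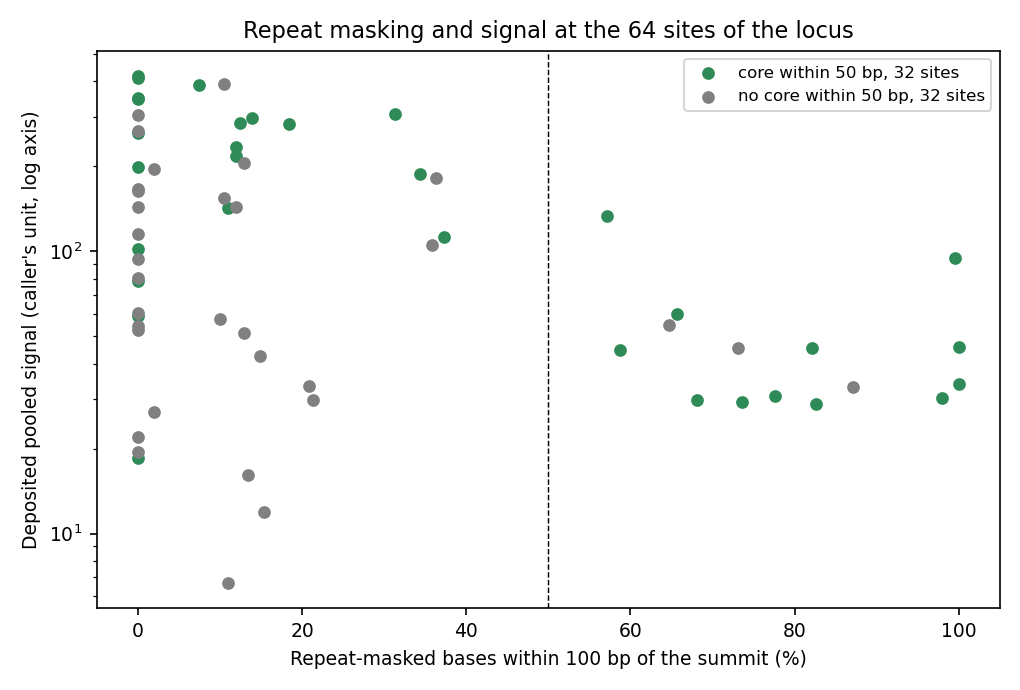
Pooled signal (log axis, caller's unit) against the share of repeat-masked bases within 100 bp of the summit for the 64 sites, coloured by presence of the core. The 15 sites right of the dashed line at 50% run from 28.7 to 133 in signal. Of these, 12 have the core (80%, against 70.3% of all sites masked in this way).

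The closest pair of sequences lay outside masked repeats, in the carnitine transporter genes that stand side by side in the locus. Site 36 in an intron of Slc22a5 and site 39 in an intron of Slc22a21 are 84.3 kb apart and shared 37 of 40 bases. Their signals were moderate, 78.8 (39.9 in replicate 1, 37.4 in replicate 2) and 58.9 (27.7 and 29.9), and both cores read on the minus strand like the genes themselves. Over the 496 pairs of sites with a core the median identity was 42.5%. Sites 38 and 43, 71.3 kb apart in the same stretch, shared a core and 30 of 40 bases and were both strong, at 263 (137.8 and 125.5) and 298 (149.3 and 153.0).
Site 36, intron of Slc22a5, chr11:53874849-53874888, minus strand: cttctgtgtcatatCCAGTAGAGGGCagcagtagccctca
Site 39, intron of Slc22a21, chr11:53959129-53959168, minus strand: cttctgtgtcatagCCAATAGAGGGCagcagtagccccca
Site 38, between Slc22a5 and Slc22a21, chr11:53931537-53931576, plus strand: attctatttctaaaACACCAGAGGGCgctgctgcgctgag
Site 43, intron of Slc22a4, chr11:54002857-54002896, plus strand: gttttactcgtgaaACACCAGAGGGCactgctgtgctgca

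Genes that act with these cytokines but lie outside the locus were counted by list, beside the background of 39.8%. Of 14 receptor genes 5 had a promoter site (35.7%), with the highest at Il3ra, the receptor chain for the product of Il3 (212, with 110.8 and 100.2 in replicates 1 and 2). Il4ra, the chain shared by IL-4 and IL-13, had 94.7 (42.4 and 52.9), and Il9r had 32.1 (21.6 and 10.9). Of 14 transcription factor genes 9 had one (64.3%), among them Nfatc1 (166, with 77.0 and 91.4), Gata3, the master factor of type 2 cells (163, with 80.4 and 84.4), and Satb1, a chromatin organiser of thymocytes (157, with 83.2 and 73.4). Of 6 alarmin and other cytokine genes Il6 (172, with 94.7 and 76.2) and Tslp (32.8, with 17.7 and 15.2) had one. None of 12 effector genes such as Ccl11, Arg1 and Muc5ac did, which allows a share of up to 24.2% by the Wilson interval. The intervals of the receptors (16.3 to 61.2), factors (38.8 to 83.7) and alarmins (9.68 to 70.0) include the background. That of the effectors lies below it. These intervals cover counting error only and treat genes as independent, while neighbours such as Retnla and Retnlb share their nearest site. The lists were chosen with earlier results known and were not tested, so no list is set apart from the background.

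Other cytokine clusters, cut with the same flanks, held fewer sites in number. The cluster of Il10, Il19, Il20 and Il24 had 21 sites at 61.2 per Mb, the pair of Il2 and Il21 had 10 at 32.0 per Mb, Ifng and Il22 had 8 at 18.1 per Mb, and Il17a and Il17f had 4 at 15.4 per Mb. Only the first came near the 71.1 per Mb of the type 2 locus, and the windows differ in length.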

How the data were processed

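CTCF ChIP-seq peaks of newborn mouse lung were analysed, 1 group of 2 replicates with numbers taken from the labels. Per the labels the files use mm10. Per the deposited descriptions, each replicate list came from that replicate's alignments, the pooled list from both, and the optimal and conservative lists by IDR from these. For the aligner, the peak caller and its settings, and the IDR cutoff, names and values were not given in the sources used here. Column 7 (signal), column 9 (−log10 q-value, not used for results) and column 10 (summit offset) were deposited by the authors, and other columns were not used. Depth is unknown, and each replicate list holds 300000 peaks.

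Sites of the optimal list were placed on GENCODE M21 genes and the GRCm38 genome with Python 3.11.15, pandas 2.3.3 and pysam 0.24.0. Replicate values are the highest peak within 100 bp of the summit. A promoter site is a summit within 1000 bp of the start of a coding transcript. The core was searched within 50 bp, with at most 1 mismatch, and the matrix was learned from 2000 strong sites with a perfect core off chromosome 11. The motif search was tested on simulated data. No test was run, since there is 1 group, and Wilson intervals cover counting error only.

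Members and gene lists were chosen with earlier results of these data known. Named genes are the 8 genes, coding genes of the window with a promoter site or a described site, and the 3 genes per list with the strongest promoter site. Described sites are the highest in each stretch, the nearest on either side of each cytokine gene, and those at promoters of the 8 genes. Sites 9, 10, 11, 12, 13, 22, 23, 28, 32, 36, 38, 39, 43, 48, 56, 57, 60, those in repeats, Slc22a21 and Mir7671 were added after their values were seen. Il1a, Il1b and Il1rn were left out of the clusters because they span 105 Mb, and Il26 was not analysed here.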

Additional observations from a re-analysis of the deposited data

Results flagged for a closer look

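Pooled peaks that the optimal list does not use also carried the core more often than their surroundings. The window held 164 pooled peaks more than 500 bp from any site, with signals up to 25.8, and 21 of them (12.8%, 95% Wilson interval 8.53 to 18.8) had the core. Windows 1000 bp to either side had it in 6 of 328 cases (1.83%), and of all 231017 such peaks on the chromosomes used 8.06% had it, a share below that interval. Of the 21 with the core, only 11 had a peak in both replicates. The strongest with a core, at 24.8 (14.7 in replicate 1, 9.52 in replicate 2), lay 1713 bp before the strong site behind Il5, on the minus strand. None of the 4 such peaks between Il4 and Il13 had the core, and of the 8 in the body of Rad50 1 had. The highest, at 25.8, was the peak at the promoter of Kif3a, and 9 of the 164 were in the conservative list.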

How the results depend on the processing

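No paired analysis was possible because there is 1 group. With the conservative list the window held 65 sites, and 56 of the 64 described here were in that list. With it, 2 of the 8 genes had a promoter site, Irf1 and Kif3a, in place of 1. Leaving out a replicate gave 60 to 61 sites and 1 to 2 genes with a promoter site (Kif3a joined without replicate 1). The median log2 signal was then 5.66 to 5.80 in place of 6.56. At the sites of the window the signal of 1 replicate lay below the pooled signal. The stronger 50% of the list left 35 sites with a median of 7.61, by construction, and no flanks gave a median of 6.79. The core share was 9.38% with 0 mismatches allowed and 76.6% with 2, and a limit of 5000 bp gave 5 genes with a promoter site (Csf2, Il13, Il3, Irf1, Kif3a). The other alternatives gave 48 to 73 sites, a core share of 43.8% to 57.1% and 43.3% to 57.1% of pairs on 1 strand. With 0 mismatches allowed the share of pairs on 1 strand was 60.0%, from only 5 pairs. Matching summits within 50 or 200 bp changed no replicate signal by more than the spread between replicates (126 values each). Without read counts the precision of weak sites is not known.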
